A study of Mus musculus with 12 samples.

Results

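The Nr4a genes Nr4a1, Nr4a2 and Nr4a3 encode a family of orphan nuclear receptors, followed here in mouse striatum 1 hour after an injection of cocaine or saline. Every probe set annotated to exactly 1 of the 3 genes was taken, which gave 3 of the 12394 genes with a probe set of their own and 5 of the 22690 probe sets of the array: 1 for Nr4a1, 2 for Nr4a2 and 2 for Nr4a3. The probe set of Nr4a1 was the 1 of the 5 that passed the filter for testing (over 4 in log2 units on 3 or more arrays), so the tested results on the family are those of Nr4a1.

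The animals were SRF mutants given 25 mg/kg cocaine, SRF mutants given saline, control littermates given 25 mg/kg cocaine and control littermates given saline, with 3 arrays in each of the 4 groups. All were females of 10 to 15 weeks, housed singly and handled for 5 days before the injection. SRF, the serum response factor, is a transcription factor that binds CArG boxes near many genes induced by neuronal activity, and the series title gives the question as its part in transcription driven by activity; the labels do not say how or in which cells Srf was altered. Groups follow the sample titles. The description field gives another group for 10 of the 12 arrays, and the treatment field gives cocaine for every sample. In accord with the genotypes in the titles, the tested Srf probe set read 5.01 to 5.49 in the 6 arrays titled mutant (log2 signal). It read 6.97 to 7.21 in the 6 titled control. Srf is no check of which arrays had cocaine or saline.

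NR4A receptors bind DNA without a known physiological ligand, so their activity is set largely by how much of them a cell makes and by modification of the protein. Nr4a1 (also NGFI-B), Nr4a2 (Nurr1) and Nr4a3 (Nor1) bind the same response element as monomers, and Nr4a1 and Nr4a2 also pair with retinoid X receptors. Their genes are immediate early genes, switched on through CREB at cyclic AMP response elements (CREs) and, for Nr4a1, also through SRF and MEF2 in other cells. In the striatum Nr4a1 is the member best known for following dopamine signalling, while Nr4a2 is made constitutively in midbrain dopamine neurons and in the claustrum.

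The start regions of the 3 genes are shown because the question concerns SRF and because CREB and SRF sites are the known inputs of the family. They are RefSeq sequence of build GRCm38.p6, 300 bases each, from 250 bases before to 50 after the transcript start, at chr15:101266596-101266895 (plus strand) for Nr4a1, chr2:57123954-57124253 (minus strand) for Nr4a2 and chr4:48045055-48045354 (plus strand) for Nr4a3. Capitals mark every CRE core (CGTCA, or TGACG where it lies on the other strand), the CArG-like stretch of Nr4a1 and the MEF2 site of Nr4a2.
Nr4a1: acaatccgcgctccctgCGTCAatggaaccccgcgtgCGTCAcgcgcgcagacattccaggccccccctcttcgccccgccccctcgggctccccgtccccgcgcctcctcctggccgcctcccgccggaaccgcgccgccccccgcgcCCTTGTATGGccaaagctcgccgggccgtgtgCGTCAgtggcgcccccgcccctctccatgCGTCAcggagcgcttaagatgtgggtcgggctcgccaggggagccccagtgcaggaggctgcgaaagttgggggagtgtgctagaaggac
Nr4a2: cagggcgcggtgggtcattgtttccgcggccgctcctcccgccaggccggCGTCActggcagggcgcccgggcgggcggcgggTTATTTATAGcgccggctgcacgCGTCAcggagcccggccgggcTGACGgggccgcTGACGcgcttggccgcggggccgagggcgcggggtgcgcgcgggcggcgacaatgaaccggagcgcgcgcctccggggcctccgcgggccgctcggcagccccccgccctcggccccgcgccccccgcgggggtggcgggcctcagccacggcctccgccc
Nr4a3: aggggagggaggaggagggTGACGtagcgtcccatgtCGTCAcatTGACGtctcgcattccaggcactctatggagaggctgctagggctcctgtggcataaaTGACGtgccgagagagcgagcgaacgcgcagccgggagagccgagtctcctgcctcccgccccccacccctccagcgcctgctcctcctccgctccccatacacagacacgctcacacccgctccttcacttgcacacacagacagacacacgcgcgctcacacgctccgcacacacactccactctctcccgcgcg

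Each of the 3 start regions held 4 CRE cores, counted on both strands. With −1 as the last base before the start, those of Nr4a1 began at −233, −213, −69 and −40, all on the gene's own strand. Those of Nr4a2 began at −200, −144, −123 and −111 and those of Nr4a3 at −231, −213, −205 and −147, on both strands. Of 32851 start regions of the same length from 27025 genes, 20.8% held at least 1 CRE core and 0.231% held at least 4. The core contains a CpG, and the 3 regions were GC-rich (72.3%, 81.7% and 64.7% G or C, against a median of 52.7% over all regions). The full CRE (TGACGTCA), present in 1.79% of all regions, was in none of the 3.

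No CArG box, the site of SRF, lay in these windows; 1.63% of all regions held one. Nr4a1 had 1 CArG-like stretch, with 1 of its 6 core bases other than A or T, from −101 to −92. Such a stretch was found in 8.50% of all regions. Nr4a2 had 1 MEF2 site from −167 to −158, where it overlaps a TATAAA on the other strand, and 3.19% of all regions had a MEF2 site. The NR4A response element AAAGGTCA, found in 1.51% of all regions, was in none of the 3. A GC box (GGGCGG, either strand) occurred 3 times in Nr4a1, 5 times in Nr4a2 and 1 time in Nr4a3, and 35.7% of all regions had at least 1. These matches describe the letters of the window and nothing about binding.

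**Figure D1:**
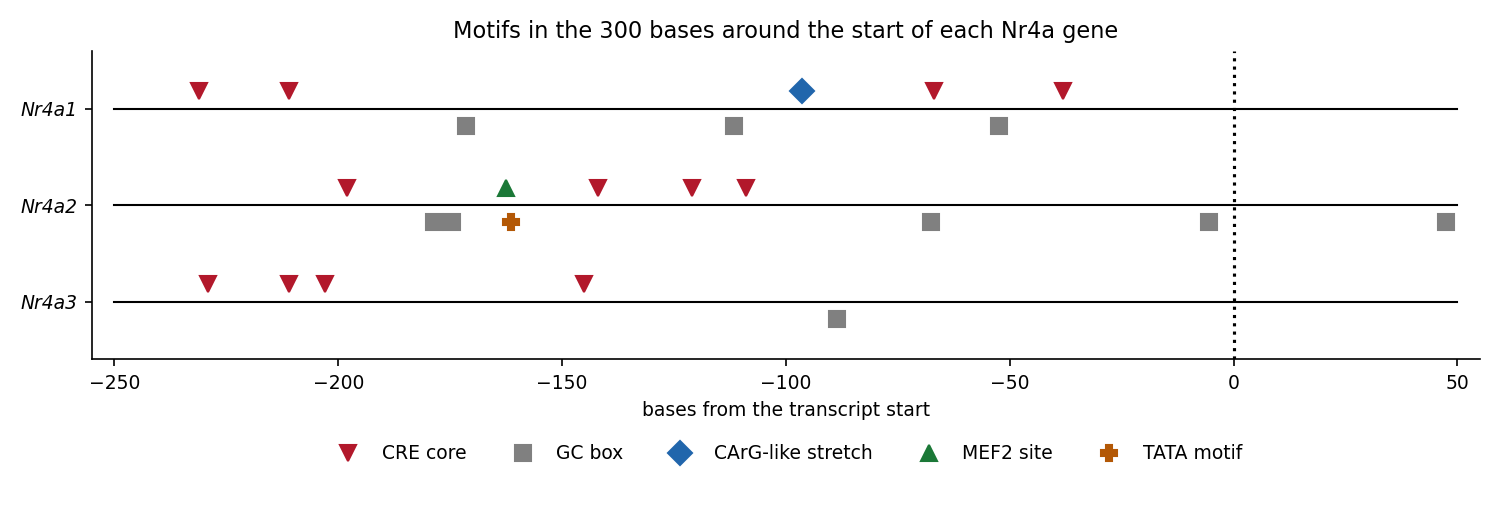
Positions of motif matches in the 300 bases around the transcript start of Nr4a1, Nr4a2 and Nr4a3 (horizontal axis, bases from the start; a marker's shape and its place above or below the line show the kind of match, not its strand). Each gene has 4 CRE cores upstream of the start, Nr4a1 alone of the 3 has a CArG-like stretch and Nr4a2 alone a MEF2 site.

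Nr4a1 was strongly expressed and differed between all 4 groups. Its log2 signal was 9.70, 9.91 and 9.72 in cocaine-treated mutants and 7.66, 7.23 and 7.61 in saline-treated mutants. In controls it was 8.94, 9.23 and 9.05 after cocaine and 6.44, 6.08 and 6.02 after saline. No array of 1 group overlapped an array of another. From high to low, the order was cocaine-treated mutants (9.78 ± 0.118), cocaine-treated controls (9.07 ± 0.146), saline-treated mutants (7.50 ± 0.233) and saline-treated controls (6.18 ± 0.230; log2, SD, n = 3 each). The receptor's transcript was thus highest where cocaine and the mutation came together, and the saline-treated mutants lay between the 2 control groups. On each array between 74.7% and 97.8% of all probe sets read lower than Nr4a1.

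The other members lay at the low end of the arrays in every group. Nr4a2, needed for the dopamine neuron's identity, read 2.85 to 3.01 on its first probe set (1450749_a_at) and 2.69 to 3.22 on its second (1450750_a_at) over all 12 arrays. Nr4a3 read 2.16 to 2.27 (1421079_at) and 2.18 to 2.38 (1421080_at). At most 42.6% of the probe sets of an array read lower than any Nr4a2 probe set and at most 17.0% lower than any Nr4a3 probe set. The highest Nr4a2 reading, 3.22, and the highest reading of 1421079_at, 2.27, came from cocaine-treated mutants, while the highest reading of 1421080_at, 2.38, came from a cocaine-treated control. For 1421079_at a second cocaine-treated mutant array, at 2.20, also lay above the highest array of the other groups (2.19), and the third did not. On 1450749_a_at the cocaine-treated mutants gave both the highest reading, 3.01, and the lowest, 2.85. On 1450750_a_at the remaining arrays of the cocaine-treated mutants lay within the range of the other groups, as did all their arrays on 1421080_at.

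When the filter on low signals was left out, 0 of the 4 probe sets of Nr4a2 and Nr4a3 were called by limma in any of 7 contrasts. Their 28 changes in limma ran from −0.06 to 0.22, and 0 had an unadjusted p under 0.05. The lowest adjusted p by limma was 0.562. The largest, for 1450750_a_at of Nr4a2, was 0.22 with cocaine in mutants (SE 0.119, adjusted p = 0.805). These readings at the low end of the arrays set no limit on a change in either transcript and do not show that it was absent.

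**Figure D2:**
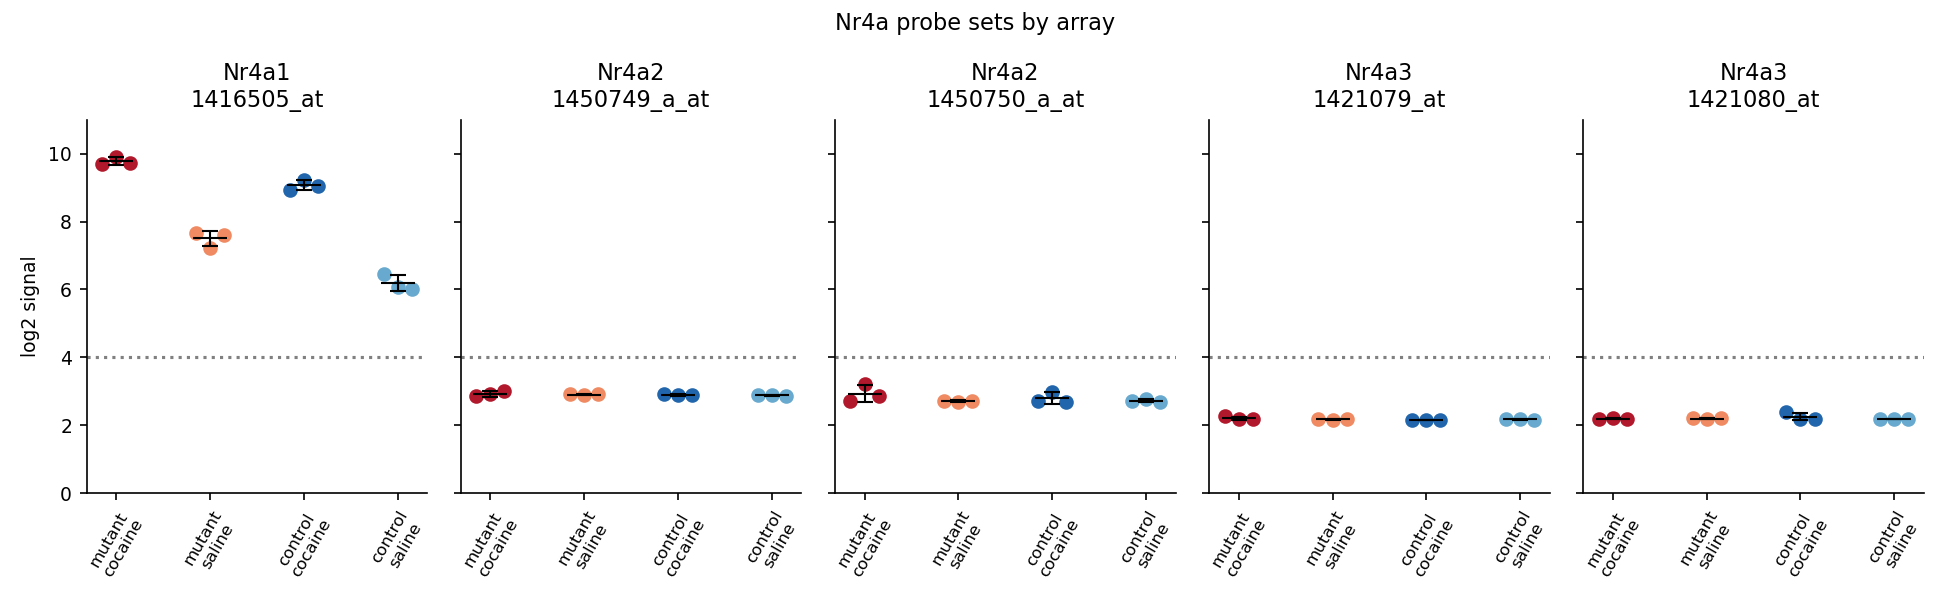
Log2 signal of the 5 Nr4a probe sets (panels) in each array (points) of the 4 groups, with the mean and SD of each group (bars, n = 3 arrays); the dotted line is the filter's floor of 4. Nr4a1 lies between 6.02 and 9.91 with groups that do not overlap, and the probe sets of Nr4a2 and Nr4a3 stay between 2.16 and 3.22.

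Cocaine raised Nr4a1 in both genotypes. In mutants the log2 change was 2.28 (SE 0.137, adjusted p = 7.58e-07), a 4.85-fold rise, and in controls it was 2.89 (SE 0.137, adjusted p = 1.61e-07), a 7.42-fold rise. All 3 cocaine arrays exceeded all 3 saline arrays in each genotype. The 1 tested Nr4a probe set was thus called in both comparisons, where 1.92% of the 11102 tested probe sets were called in mutants and 0.45% in controls. Ordered by change from the top, Nr4a1 stood at rank 11 in mutants and rank 5 in controls. Over both genotypes it rose 6.0-fold (2.58, SE 0.0970, adjusted p = 5.82e-09; 2.31% of probe sets called), and an exact permutation test of arrays within genotype gave the smallest p it can, 0.005 (two-sided, 400 relabellings).

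Mutants also had more Nr4a1 without cocaine. After saline it was 2.50-fold higher in mutants than in controls (log2 difference 1.32, SE 0.137, adjusted p = 0.000190; 2.98% of probe sets called), at rank 15 from the top of the 11102 probe sets tested. After cocaine it was 1.63-fold higher in mutants (0.70, SE 0.137, adjusted p = 0.0107; 4.19% of probe sets called). Averaged over both treatments the difference was 2.02-fold (1.01, SE 0.0970, adjusted p = 2.95e-05; 9.47% of probe sets called), and the exact permutation test within treatment again gave its smallest p, 0.005. The call after cocaine was lost without the filter (adjusted p = 0.0517) and without replicate 1 of the cocaine-treated controls (0.64, adjusted p = 0.0521). In a bulk sample, more cells with the transcript and more transcript per cell cannot be told apart. The summed signal of 7 medium spiny neuron markers was 9618 to 10357 in cocaine-treated mutants and 9878 to 10831 in saline-treated mutants, against 9397 to 9706 in cocaine-treated controls and 9118 to 9850 in saline-treated controls. The saline ranges did not overlap, and their part in the Nr4a1 difference was not tested. The 7 markers did not go one way: after saline Tac1, the substance P precursor, was the 1 called (0.42, adjusted p = 0.00802, 18 of 18 alternative fits), and after cocaine 0 were called by limma (3 at an unadjusted p under 0.05). Over both treatments Tac1 (0.35) and Penk (0.19), the enkephalin precursor, were higher in mutants and Rgs9, a regulator of G protein signalling, was lower (−0.33, adjusted p = 0.0342, 9 of 18 alternative fits). Ppp1r1b, which encodes DARPP-32, read −0.23 and was not called (adjusted p = 0.0511).

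The size of the induction depended on the scale. In log2 units the rise was smaller in mutants by 0.61 (log2 difference of responses −0.61, SE 0.194, interval −1.03 to −0.19 at 95% confidence), that is a 1.53-fold smaller fold change. This did not pass the test over all probe sets (adjusted p = 0.722 by limma, unadjusted p = 0.00761). Only 0.0721% of probe sets were called for this difference, and 553 of the 11102 had an unadjusted p under 0.05. With the signals taken out of log2, the means were 879 ± 73.3 in cocaine-treated mutants and 183 ± 28.1 in saline-treated mutants, against 540 ± 55.2 in cocaine-treated controls and 73.2 ± 12.1 in saline-treated controls (array units, SD, n = 3 each). The rise in these units was 697 in mutants and 467 in controls (SE 39.5 each), larger in mutants by 230 (SE 55.8, not tested). The direction of the difference thus turns with the scale.

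**Figure D3:**
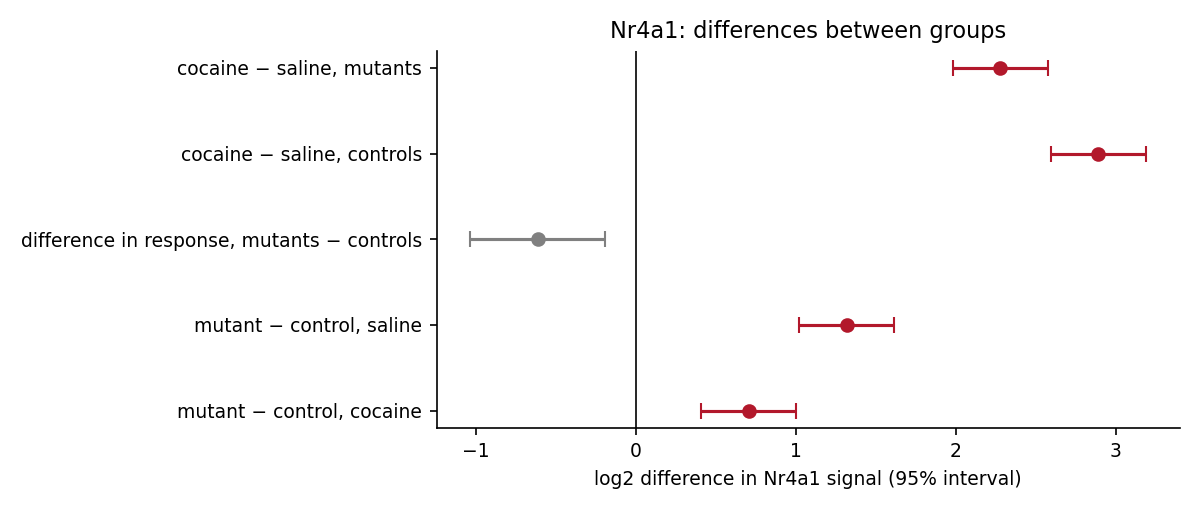
Log2 differences in Nr4a1 signal between groups (points) with limma's 95% intervals (bars, 3 arrays per group); red marks differences called at an adjusted p under 0.05 and grey the one that was not. The responses of 2.28 in mutants and 2.89 in controls are both called, as are the mutant excesses of 1.32 after saline and 0.70 after cocaine, and the difference of responses, −0.61, is not.

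The 5 genes whose profile over the 12 arrays was most like that of Nr4a1 were Arc (Pearson r = 0.984), Fos (0.984), Per1 (0.980), Junb (0.979) and Dusp1 (0.969), out of 6650 genes ranked. All are immediate early genes: Arc encodes a postsynaptic protein, Fos and Junb subunits of AP-1, Per1 a clock protein and Dusp1 a MAP kinase phosphatase. The correlations describe 12 arrays that share treatment, genotype and normalization.

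Like Nr4a1, the 5 genes had their highest mean in cocaine-treated mutants and their lowest in saline-treated controls. This largely follows from their choice by likeness to Nr4a1 on these same arrays. Their calls between genotypes use the values that chose them and are given as description only. After saline, Arc was the one of the 5 that was called as higher in mutants (1.27, SE 0.284, adjusted p = 0.0302, called in 12 of 18 alternative fits). It read 5.66, 5.08 and 6.40 in saline-treated mutants, against 4.84, 4.24 and 4.23 in saline-treated controls. Fos read 5.65, 5.18 and 6.78 in saline-treated mutants, against 5.17, 3.71 and 4.14 in saline-treated controls (1.53, SE 0.394, adjusted p = 0.0588), and its nearest arrays were 5.18 in mutants and 5.17 in controls. Per1 (0.41, adjusted p = 0.0982), Junb (0.73, adjusted p = 0.111) and Dusp1 (0.84, adjusted p = 0.127) were also not called.

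Replicate 3 of the saline-treated mutants had the highest reading of its group for each of the 5 genes and replicate 2 the lowest. For Nr4a1 replicates 1 and 3 of that group lay close together (7.66 and 7.61), and without replicate 3 the excess of Nr4a1 after saline was 1.27 (adjusted p = 0.00133). After cocaine, Junb (0.88, adjusted p = 0.0418) and Dusp1 (1.06, adjusted p = 0.0405) were higher in mutants, while Arc (0.39, adjusted p = 0.553), Fos (1.01, adjusted p = 0.198) and Per1 (0.44, adjusted p = 0.0652) were not called. The calls after cocaine were kept in 8 of 18 alternative fits for Junb and 7 of 18 for Dusp1, and all 18 fits had both genes higher in mutants.

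The start regions of 4 of these genes held fewer CRE cores than the 4 of each Nr4a gene; that of Arc was not analysed here. Dusp1 had 3, of which 2 form a full CRE, Fos 2, Junb 1 and each of the 2 Per1 regions 1. Dusp1 and 1 of the Per1 regions also had a CArG-like stretch, and that Per1 region a MEF2 site.

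**Figure D4:**
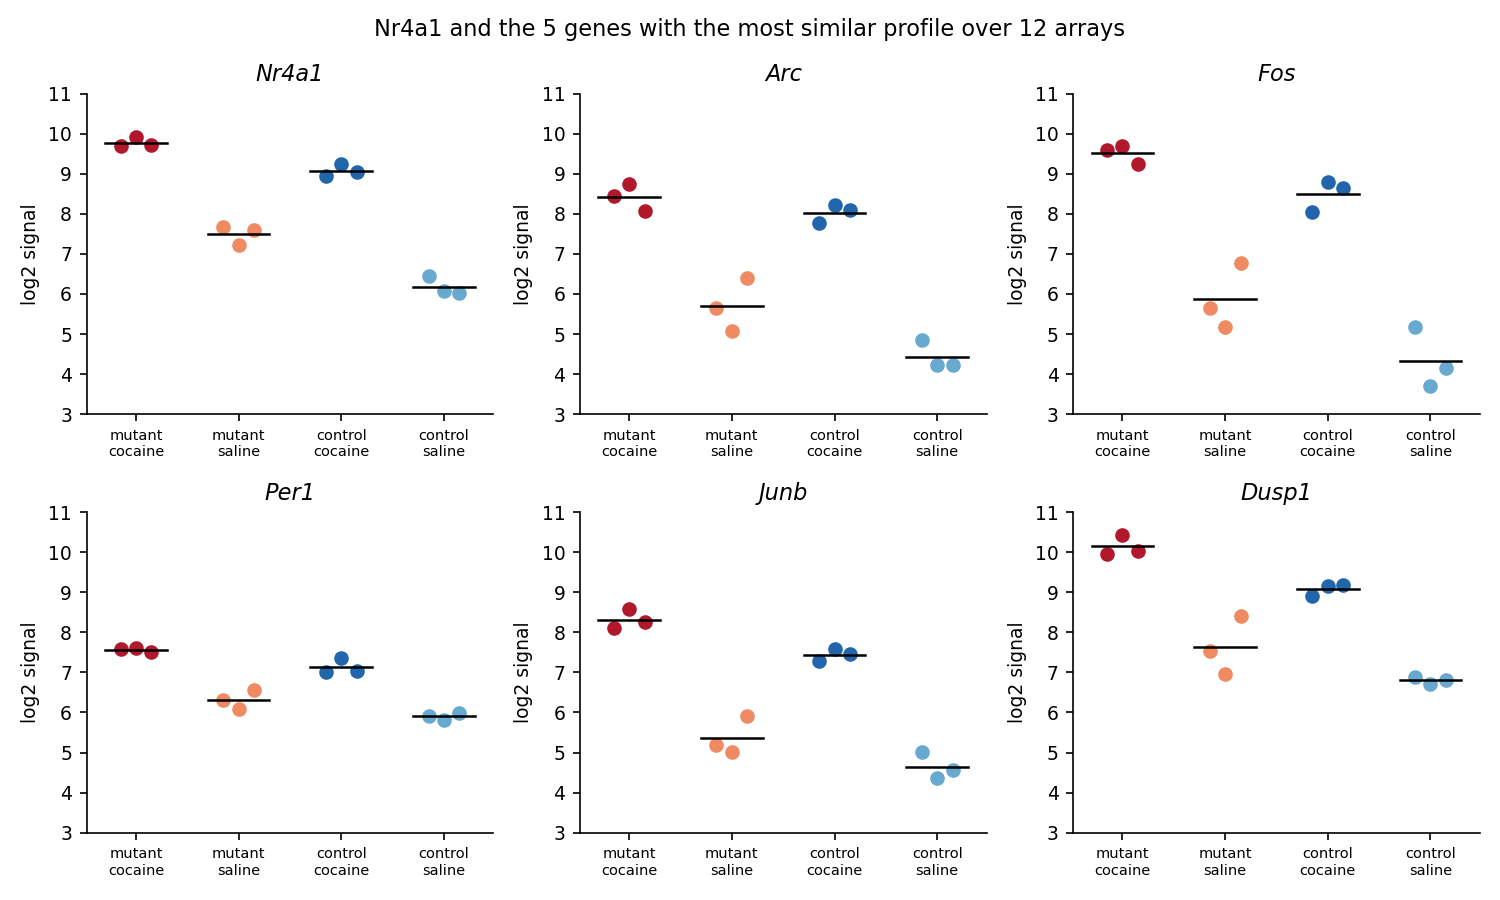
Log2 signal of Nr4a1 and of the 5 genes most like it, in each array (points) of the 4 groups with the group mean (line, n = 3). All 6 genes are highest in cocaine-treated mutants and lowest in saline-treated controls, as largely follows from choosing the 5 by likeness to Nr4a1. The saline-treated mutants are spread most widely for Fos, from 5.18 to 6.78.

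Nr4a1 was the 1 nuclear receptor gene of 13 tested that was called with cocaine. Of 46 other receptor genes of the mouse, 39 were on the array and 12 passed the filter. With cocaine 0 of the 12 were called by limma in mutants and 0 in controls, and 0 had an unadjusted p under 0.05 in either genotype. Their changes ran from −0.11 (the thyroid hormone receptor Thra) to 0.13 (the orphan receptor Rora) in mutants and from −0.14 (Thra) to 0.26 (Rora) in controls, with medians of 0.02 and 0.03. Over all 6651 genes tested, with 1 probe set each, the medians were −0.01 and 0.00 and the shares called 2.14% and 0.586%. Nr1d2, the brightest of the 12 and a clock-linked repressor, read 0.09 in mutants (adjusted p = 0.834) and 0.04 in controls (adjusted p = 0.992).

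Between genotypes, Rxrg and Nr2f6 were called beside Nr4a1 in both treatments. Rxrg, a retinoid X receptor able to pair with Nr4a1 and enriched in striatum, read 8.75, 8.68 and 8.78 in cocaine-treated mutants and 8.82, 8.71 and 8.96 in saline-treated mutants. In controls it read 7.86, 7.84 and 8.01 after cocaine and 8.12, 7.81 and 7.76 after saline. All 6 mutant arrays exceeded all 6 control arrays, with differences of 0.93 after saline (SE 0.103, adjusted p = 0.000283) and 0.84 after cocaine (SE 0.103, adjusted p = 0.000486). Nr2f6, an orphan receptor of the COUP family, was lower in mutants after saline (−0.89, adjusted p = 0.0144, called in 13 of 17 alternative fits) and after cocaine (−0.99, adjusted p = 0.00603, 17 of 17). Its mutant means of 3.12 and 3.18 after saline and after cocaine lay under the filter's floor of 4. It passed the filter through control arrays alone, and these read 3.72 to 4.61, so both calls rest on signals near the floor. Rarb, a retinoic acid receptor, was lower in mutants over both treatments (−0.27, SE 0.0692, adjusted p = 0.0292), a call kept in 10 of 18 alternative fits.

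In numbers, 1 of the 12 was higher and 1 lower in each treatment, and 1 was higher and 2 lower over both, with medians of 0.00, 0.01 and 0.02. The lower gene in each treatment, and 1 of the 2 over both, was Nr2f6, which passed the filter through control arrays alone. Over all genes 3.43% were called after saline, 4.75% after cocaine and 10.7% over both treatments. Nr4a1 exceeded all 12 after saline, and Rxrg exceeded Nr4a1 after cocaine (0.84 against 0.70); these ranks were not tested.

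**Figure D5:**
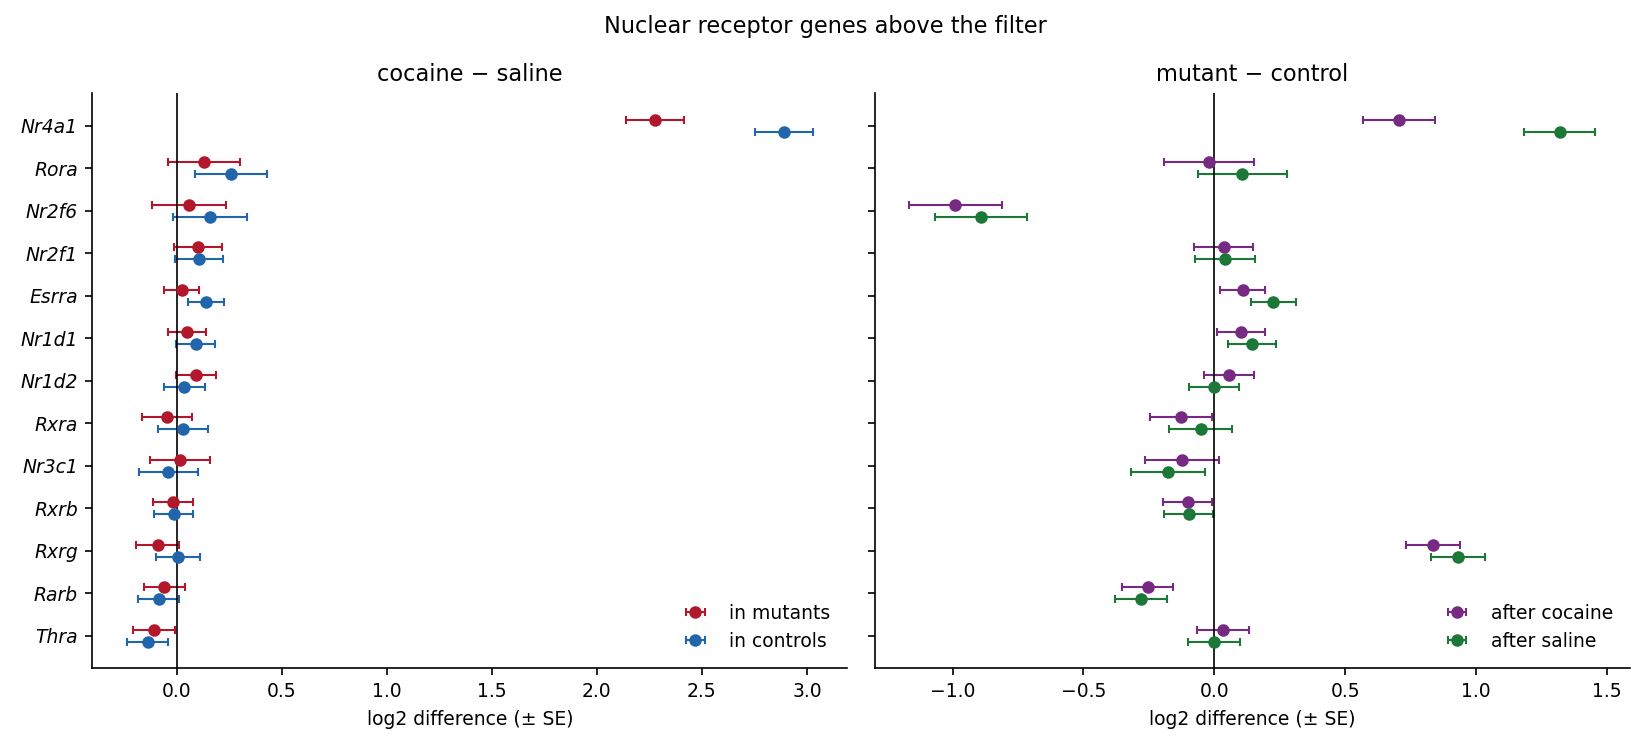
Log2 differences (points) with limma's SE (bars) for the 13 nuclear receptor genes above the filter, ordered from the top by their response averaged over genotypes; left, cocaine minus saline in mutants and in controls; right, mutant minus control after cocaine and after saline. Nr4a1 stands at 2.28 and 2.89 on the left, where the other 12 lie between −0.14 and 0.26. On the right Nr4a1 and Rxrg are higher and Nr2f6 lower in mutants. Nr2f6 passed the filter through control arrays alone.

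Of the factors known to act on Nr4a promoters, and their coactivators, 2 were called with cocaine in mutants and 0 in controls. Over all genes 2.14% and 0.586% were called. Of 17 genes on this list, 14 were on the array and 9 were tested. In mutants 2 of the 9 rose: Crem, a CREB relative whose inducible products repress CRE genes (1.13, SE 0.203, adjusted p = 0.00924, called in 14 of 17 alternative fits), and Elk4, a ternary complex partner of SRF (0.51, SE 0.105, adjusted p = 0.0241). Crem read 6.09, 5.77 and 5.40 in cocaine-treated mutants, against 4.35, 4.97 and 4.53 in saline-treated mutants. Elk4 read 5.33, 5.30 and 5.32 in cocaine-treated mutants, against 4.76, 4.80 and 4.86 in saline-treated mutants, and its call was kept in 10 of 17 alternative fits. In controls 0 of the 9 were called by limma and 1 had an unadjusted p under 0.05. The median change was 0.09 in mutants and 0.06 in controls. Control means of Crem were 4.85 after cocaine and 4.36 after saline, and those of Elk4 5.13 and 4.96. Over both genotypes limma called Crem (0.81, adjusted p = 0.00736, 16 of 17 alternative fits) and Elk4 (0.34, adjusted p = 0.0305, 7 of 17). Of all genes 2.53% were called there. For the difference in response 0 of the 9 were called by limma, against 0.105% of all genes. An unadjusted p under 0.05 by limma was found for 3 of the 9 genes, against 553 of the 11102 probe sets.

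Between genotypes, Mef2c, a MEF2 factor abundant in forebrain neurons, was lower in mutants beside Srf itself. After saline 0 of the 9 tested factors were higher and 2 lower in mutants, and after cocaine 1 was higher and 2 lower. Srf, which the mutants are named for, is counted among the lower each time. Over all genes 3.43% were called after saline and 4.75% after cocaine. Mef2c read 7.13, 7.44 and 7.16 in cocaine-treated mutants, against 8.09, 7.82 and 8.02 in cocaine-treated controls (−0.73, SE 0.129, adjusted p = 0.00548). After saline it read 7.18, 7.16 and 7.11 in mutants, against 7.54, 8.07 and 7.77 in controls (−0.64, SE 0.129, adjusted p = 0.0154). In both treatments 4 of its 5 probe sets were called. Srf was also lower in mutants, after saline (−1.97, adjusted p = 3.20e-07) and after cocaine (−1.68, adjusted p = 4.84e-07). Crem was higher in mutants after cocaine (0.90, adjusted p = 0.0243, called in 11 of 17 alternative fits). Mef2a, the brightest member not called, read 0.33 after saline (adjusted p = 0.168) and 0.09 after cocaine (adjusted p = 0.749).

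Of 15 receptor partners and coregulators of NR4A proteins, 12 were on the array and 9 were tested. With cocaine 0 of the 9 were called by limma in mutants and 0 in controls (0 and 1 at an unadjusted p under 0.05), with medians of −0.06 and −0.01. Over all genes 2.14% and 0.586% were called, so 0 of 9 lies near that share. Rxrg was the 1 member called between genotypes in either treatment. The coactivator Ncoa1, the brightest member not called, read −0.06 after saline and −0.19 after cocaine (adjusted p = 0.810 and 0.301).

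Genes known as NR4A-responsive in neurons or endocrine cells were too few to set apart from all genes with cocaine. Of 18 such genes, 14 were on the array and 6 were tested, of which 0 were called by limma in mutants and 0 in controls (1 each at an unadjusted p under 0.05). The shares over all genes were 2.14% and 0.586%, and the medians of the 6 were 0.09 and 0.01. Between genotypes after saline 0 of the 6 were called by limma, against 3.43% of all genes. Their median was −0.26, against −0.01 over all genes. An unadjusted p under 0.05 by limma was found for 4 of the 6 and, over all probe sets, for 1731 of the 11102. Penk, made in D2 medium spiny neurons and the brightest of the 6, changed with cocaine by −0.08 in mutants (adjusted p = 0.817) and 0.00 in controls (adjusted p = 0.989). Over both treatments Penk was higher in mutants (0.19, SE 0.0549, adjusted p = 0.0431, called in 8 of 18 alternative fits) and the chaperone gene Hspa5 lower (−0.33, SE 0.0733, adjusted p = 0.0123). Aldh1a1, a retinoic acid synthesising enzyme, was lower in mutants after cocaine (−0.47, adjusted p = 0.0419, called in 7 of 18 alternative fits). Over all genes 4.75% were called there. Its mean was 6.53 in cocaine-treated mutants, 6.60 in saline-treated mutants and 6.65 in saline-treated controls, against 7.01 in cocaine-treated controls. The arrays of the cocaine-treated controls read 6.89, 6.88 and 7.25. Nts, the neurotensin precursor, read −0.38 over both treatments and was not called (adjusted p = 0.154).

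The tissue label was checked against marker genes. All 7 medium spiny neuron markers on the array, of 10 listed, read between 8.13 and 11.99 in every array. Of the 6 cortical markers 3 were on the array, and Tbr1, Neurod6 and Neurod2 stayed at or below 3.63. The dopamine neuron markers Slc6a3, Pitx3 and Foxa2 stayed at or below 2.46, Th exceeded 4 in 2 arrays, and Ddc, the 1 tested member of the 5 on the array, read 4.05 to 4.93 in all 12. Of the claustrum list Ntng2 and Cplx3 stayed at or below 2.27, Ccn2 read 2.75 to 4.50 with 4 arrays over 4, and Gnb4 and Lxn, which other cells also express, read at least 6.33. Low readings of cortical, dopamine neuron and claustrum markers do not show that these transcripts or cells were absent. Astrocyte, oligodendrocyte, microglia and endothelium lists had 0 members called by limma between genotypes (3 after saline and 0 after cocaine at an unadjusted p under 0.05), where 3.43% and 4.75% of all genes were called. With cocaine Gfap fell in mutants (−1.02, adjusted p = 0.0303, 13 of 17 alternative fits). Its mean there was 5.05 after saline and 4.03 after cocaine, near the filter's floor of 4. In controls the means were 4.26 after saline and 4.06 after cocaine.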

How the data were processed

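Total RNA (2 µg a sample) of striatum cut from sections of 150 µm was measured on 12 Affymetrix arrays. The authors deposited 1 value per probe set and array, read here as log2 signal from its range (array minima 1.26 to 1.29, maxima 13.0 to 13.1). GCRMA and R 2.4.1 are listed, without a role, in the submitters' processing notes. The sources used here do not give the log base or any options. Array medians were 3.75 to 3.78. The number of arrays limits the precision.

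The deposited log2 signals were fitted with limma 3.58.1 in R 4.3.3, with 1 mean per group over all 12 arrays (residual degrees of freedom 8, prior 4.71 by eBayes). Leaving out 64 control probe sets, 11102 with a log2 signal over 4 in at least 3 arrays were tested. P-values were adjusted by Benjamini-Hochberg over all of them and called under 0.05, two-sided. The titles call the arrays of a group biological replicates, each of its own animal. Errors of log2 changes are limma's standard errors, and those of changes in array units take the mean of the 4 group variances. In 3 against 3 arrays an exact permutation test cannot go below 0.1, so it was used for the averaged contrasts. The fit was tested on simulated data.

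Genes were named from the platform annotation, and lists used the brightest tested probe set with 1 symbol per gene. Named genes were Srf, the Nr4a genes, the 5 genes best correlated with each Nr4a gene over the arrays, and of each list the members called (up to 6 per contrast) and the brightest uncalled one; genes like Nr4a2 and Nr4a3 are not named, because those members spanned at most 0.528 log2 units at the low end of the arrays. Members and lists were chosen with earlier results of these data known. Start regions were read from a RefSeq table of build GRCm38.p6, which held all 3 Nr4a genes.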

Additional observations from a re-analysis of the deposited data

How the results depend on the processing

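Nr4a1 kept its direction on the log2 scale in all alternatives run (no filter, a floor of 6, array weights, trended and robust moderation, quantile normalization, the compared groups alone, the replicate block, each array left out). Its call was kept in all of them for cocaine in mutants, in controls and over both genotypes, and for the genotype difference after saline and over both treatments. The difference after cocaine lost its call without the filter (0.70, adjusted p = 0.0517, 0 probe sets of the family called) and without replicate 1 of the cocaine-treated controls (0.64, adjusted p = 0.0521; range over arrays left out 0.64 to 0.78, with 0 to 1 probe sets called). The cause was not tested; leaving out the filter raises the number tested to 22626 and leaving out an array lowers the number of samples. The difference in response was called in none (adjusted p 0.326 to 1.0), and in array units, a scale chosen after seeing the data, it reversed to 230.

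With the replicate number as a block, Nr4a1 changed by 2.28 (adjusted p = 1.04e-05) with cocaine in mutants and by 2.89 (adjusted p = 2.43e-06) in controls, and differed by 1.32 (adjusted p = 0.00106) after saline and 0.70 (adjusted p = 0.0248) after cocaine; the difference in response had an adjusted p of 0.854. The block changed no call of Nr4a1. Same-numbered arrays of different groups deviated together with a median correlation of −0.08 (18 pairs, −0.14 to 0.12). For arrays of other numbers the median was 0.02 (36 pairs, −0.10 to 0.16). With 3 arrays per group these values cannot tell whether same-numbered arrays have more than the number in common.

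Over all probe sets, the calls for the difference in response numbered 5 without the filter against 8. The calls for cocaine in controls numbered 88 with array weights against 50. For cocaine in mutants they were 128 to 239 with an array left out against 213. For the genotype difference they were 152 after saline with the compared groups alone and 216 to 350 with an array left out against 331, and after cocaine 708 with array weights and 253 to 539 with an array left out against 465. Signals near or under 4 limit what can be said of Nr4a2 and Nr4a3.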
